A study of Homo sapiens with 6 samples.

Results

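EMP1, EMP2 and EMP3 encode the epithelial membrane proteins, which with the peripheral myelin protein PMP22 form a small family of membrane proteins. Their levels were compared between AGS cells, a human gastric adenocarcinoma line, transfected with CTNNB1 siRNA, which targets the beta-catenin gene, and AGS cells transfected with a non-targeting control siRNA. The family was taken up because EMP1 differed strongly between these groups, so the differences of its genes are given as descriptions without a p-value. The 4 genes were matched by symbol to the rows of the expression table, and 3 of them, each with 1 row, were found among the 18417 genes with a row. PMP22 was not analysed here. RNA was taken 48 hours after transfection, and each group held 3 arrays that the titles call biological replicates. All 6 cultures were of 1 cell line, and the labels do not say whether passages or days differed, so errors measure the spread between these samples, which may be technical.

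The proteins of this family cross the membrane several times and share their fold with the claudins of tight junctions. PMP22 is a component of peripheral nerve myelin, and changes in its gene dose cause inherited neuropathy. EMP1 was described in epithelia undergoing squamous differentiation, EMP2 has been linked to integrins and focal adhesion kinase at the cell surface, and EMP3 has been studied in blood cells and in glioma. Beta-catenin is the transcriptional arm of Wnt signalling, where it acts through TCF and LEF factors at DNA, and it also links cadherins to the cytoskeleton.

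The promoters of the measured genes are shown because beta-catenin acts at DNA through TCF and LEF factors and EMP1 differed between the groups by more than EMP2 and EMP3 did. Each window holds the 250 bases before the gene's start in RefSeq on GRCh38.p14, written 5′ to 3′ on the gene's strand, with capitals for the TCF/LEF letters (either CTTTGAA or else CTTTGAT or else CTTTGTA or else CTTTGTT) and for the AP-1 letters (TGAGTCA), searched on both strands.
EMP1 promoter, chr12:13196476-13196725, plus strand: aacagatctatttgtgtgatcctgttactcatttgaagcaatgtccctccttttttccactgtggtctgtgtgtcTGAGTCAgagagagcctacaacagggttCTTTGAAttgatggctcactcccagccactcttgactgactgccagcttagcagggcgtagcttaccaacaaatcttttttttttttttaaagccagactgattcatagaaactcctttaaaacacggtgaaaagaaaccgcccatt
EMP2 promoter, chr16:10580599-10580848, minus strand: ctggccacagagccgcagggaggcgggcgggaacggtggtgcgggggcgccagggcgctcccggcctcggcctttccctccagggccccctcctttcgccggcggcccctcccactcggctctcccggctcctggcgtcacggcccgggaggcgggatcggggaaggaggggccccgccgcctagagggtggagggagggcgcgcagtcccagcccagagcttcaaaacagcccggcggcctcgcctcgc
EMP3 promoter, chr19:48325302-48325551, plus strand: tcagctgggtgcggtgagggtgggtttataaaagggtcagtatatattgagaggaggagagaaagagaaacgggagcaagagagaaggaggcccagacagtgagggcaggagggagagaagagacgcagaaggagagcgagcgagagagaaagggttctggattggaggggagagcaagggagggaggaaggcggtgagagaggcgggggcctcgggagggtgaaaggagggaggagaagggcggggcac
The EMP1 window held TGAGTCA, the letters bound by AP-1 factors, from 175 to 169 bases before the start. It also held CTTTGAA, one form of the TCF/LEF letters, from 147 to 141 bases before the start, and the motifs did not overlap. Neither motif was found in the EMP2 window, in the EMP3 window printed above or in the second RefSeq window of EMP3. Of 35114 promoter windows of this length, 12.0% held a TCF/LEF form and 4.20% held the AP-1 letters. These shares are over windows of any base composition. The EMP windows differed in base composition, with 42.4% G and C for EMP1, 77.2% for EMP2 and 59.2% for EMP3. The shares among windows of like composition were not computed. These matches are letters in a window and do not show that a factor was bound.

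Values are log2 expression after RMA, the array normalisation the authors used, and differences are CTNNB1 siRNA minus control siRNA on that scale. CTNNB1 itself checked the labels, with levels of 10.27, 10.78 and 10.58 on CTNNB1 siRNA replicates 1 to 3, against 11.92, 11.76 and 11.75 on control siRNA replicates 1 to 3. Its log2 difference was -1.27 (SE 0.17), or 41.5% of the control level. The array of CTNNB1 siRNA replicate 1 was unlike the rest, with a Pearson correlation across rows of 0.962 to 0.965 with each of them, against 0.983 to 0.988 among the other pairs. The differences of the EMP genes are given with and without it, as are those of other named genes that it moved by over 1.5 times. The epithelial keratin and adhesion genes KRT8, KRT18, KRT19 and EPCAM averaged 12.60, 11.31, 11.02 and 11.51 in CTNNB1 siRNA cells, and 12.10, 10.81, 10.06 and 11.38 in control siRNA cells. Other epithelial markers were lower. ELF3, CLDN4 and CDH1 averaged 9.47, 8.71 and 6.86 in CTNNB1 siRNA cells, and 9.13, 8.04 and 6.84 in control siRNA cells. Of the markers of other cell types, 8 of 9 measured fibroblast and endothelial genes and 4 of 5 measured immune genes lay among the dimmest 40% of rows.

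Of the 3 genes, EMP1 had the largest difference between the groups. Its level was 8.61, 8.70 and 8.81 on CTNNB1 siRNA replicates 1 to 3, against 7.10, 7.44 and 7.28 on control siRNA replicates 1 to 3. Every CTNNB1 siRNA array thus lay above every control array, and 1.17 on the log2 scale separated the lowest CTNNB1 siRNA array from the highest control array. The mean was 8.70 ± 0.098 (SD, n = 3) in CTNNB1 siRNA cells and 7.27 ± 0.17 (SD, n = 3) in control siRNA cells. This gave a log2 difference of 1.43 (SE 0.15), which is 2.69-fold with a 95% confidence interval of 2.13-fold to 3.41-fold. In bulk RNA, more cells with EMP1 transcripts and more EMP1 transcripts per cell cannot be told apart.

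EMP1 had the ninth largest positive difference of the 18417 genes with a row. Among the 9258 genes whose mean over the 6 arrays reached the median of all tested rows it had the sixth largest, and 3 of all the genes had a wider upward gap between the groups. Its mean over the 6 arrays, 7.99, was above the dim range, in which RMA compresses differences. Set against the control mean array by array, EMP1 was 2.52-fold, 2.68-fold and 2.89-fold higher on CTNNB1 siRNA replicates 1 to 3. The array that stood apart had the smallest of the 3 values, and it also had the lowest CTNNB1 level. Without that array the log2 difference of EMP1 was 1.48 (SE 0.15), and it lay between 1.34 and 1.51 whichever array was left out.

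**Figure D1:**
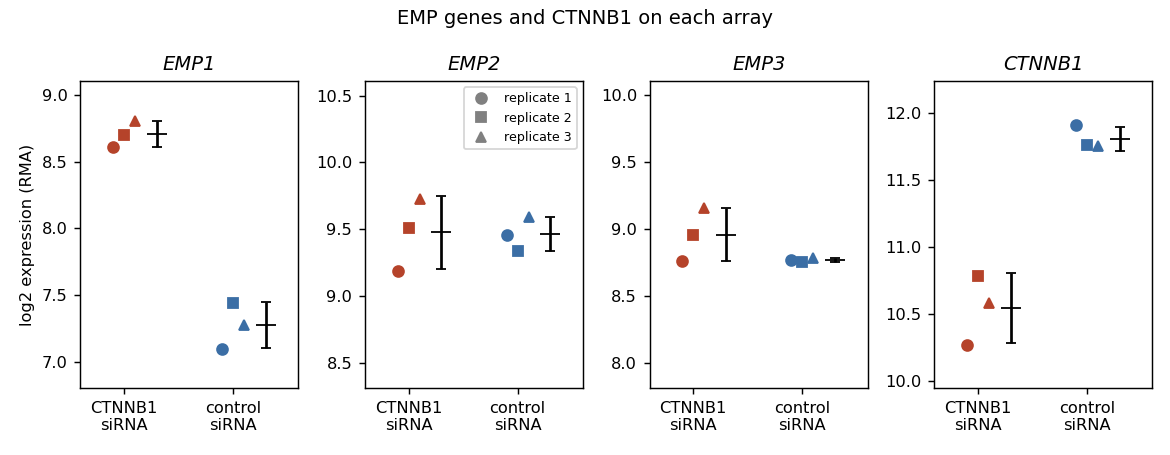
Log2 expression after RMA (y axis, each panel spanning the same number of log2 units) of EMP1, EMP2, EMP3 and CTNNB1 on the 3 CTNNB1 siRNA arrays (red) and the 3 control siRNA arrays (blue). Symbols mark the replicate number, and the black bar gives the mean ± SD (n = 3). The groups are apart for EMP1 and CTNNB1 in opposite directions and overlap for EMP2 and EMP3.

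EMP2 lay at about the same mean in both groups. Its level was 9.19, 9.51 and 9.73 on CTNNB1 siRNA replicates 1 to 3, against 9.46, 9.34 and 9.59 on control siRNA replicates 1 to 3. The groups overlapped, and both the lowest and the highest of the 6 arrays were CTNNB1 siRNA arrays. The mean was 9.48 ± 0.27 (SD, n = 3) in CTNNB1 siRNA cells and 9.46 ± 0.13 (SD, n = 3) in control siRNA cells, a log2 difference of 0.014 (SE 0.17). The 95% confidence interval of the fold ran from 0.764 to 1.33, so a 2.69-fold difference like that of EMP1 lay outside it, while differences of up to about 1.33-fold in the upward direction did not. The sign of the EMP2 difference was not settled: it was -0.0021 when the median of each array was subtracted, 0.16 without CTNNB1 siRNA replicate 1, and -0.11 without CTNNB1 siRNA replicate 3.

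EMP3 was 8.76, 8.96 and 9.16 on CTNNB1 siRNA replicates 1 to 3, against 8.77, 8.76 and 8.78 on control siRNA replicates 1 to 3. The control arrays were almost identical and spanned 0.028 on the log2 scale, whereas the CTNNB1 siRNA arrays spanned 0.40, with replicate 1 inside the control range and replicates 2 and 3 above it. The SD of EMP3 among control arrays, 0.014, was lower than that of nearly all genes, with 0.570% of genes below it. The mean was 8.96 ± 0.20 (SD, n = 3) in CTNNB1 siRNA cells and 8.77 ± 0.014 (SD, n = 3) in control siRNA cells. The log2 difference was 0.19 (SE 0.15), with a 95% confidence interval of -0.15 to 0.53, or 0.900-fold to 1.44-fold. It was 0.29 without CTNNB1 siRNA replicate 1 and 0.089 without CTNNB1 siRNA replicate 3, so its size rested on these arrays.

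After adjustment over all 19460 rows tested in limma, 0 of the 3 genes passed the threshold of 0.05. The same fit called 0.00514% of all rows, or 1 row, and 1098 rows had an unadjusted p under 0.05. The called row was higher and 0 rows were called lower. CTNNB1, with a log2 difference of -1.27 (SE 0.17), thus did not pass either. Each count of genes passed below is to be read against the share of 0.00514%, and a count of 0 does not show equal levels. Leaving out CTNNB1 siRNA replicate 1, the fit called 0.0514% of rows, and with arrays weighted by quality it called 0.0668%. EMP1 was among the rows called in both of these fits and in none of the other fits run. EMP1 was 1 of 3 genes whose groups did not overlap in the upward direction, against 6.81% of all rows, and 0 of 3 did so downward, against 6.8%. Since EMP1 was chosen from this comparison, these calls and counts describe it, are no test of it and support nothing further.

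**Figure D2:**
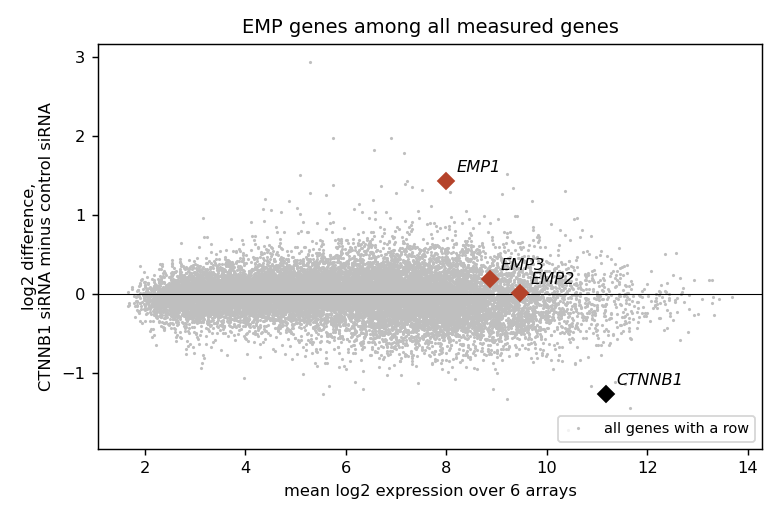
Log2 difference, CTNNB1 siRNA minus control siRNA (y axis), against the mean log2 expression over the 6 arrays (x axis) for every gene with a row (grey points), with the EMP genes as red diamonds and CTNNB1 as a black diamond. EMP1 lies at 1.43, above nearly all genes, while EMP2 at 0.014 and EMP3 at 0.19 lie within the main body of points.

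In EMP1, EMP2 and EMP3 alike, CTNNB1 siRNA replicate 1 had the lowest value of its group and replicate 3 the highest, an order that 24.6% of all genes shared. The profiles of EMP2 and EMP3, each centred on its own mean, had a root mean square difference of 0.118 over the 6 arrays. Of 9070 other genes compared with EMP2 in this way, 2.52% were closer to it than EMP3 was. The root mean square difference was 0.730 between EMP1 and EMP2, and 0.632 between EMP1 and EMP3. Both of these values largely restate the group difference of EMP1, from which the family was chosen. These distances describe 6 arrays and carry no test.

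The genes whose centred profiles were most like that of EMP1 were MXD1, ALPG, MUC13, ALPP, PI3 and TM4SF1, the closest 6 of 9070 genes by root mean square difference over the 6 arrays. The distance was 0.151 for MXD1 and 0.204 to 0.259 for the other 5, against a median of 0.773 over the genes compared. They were picked for this likeness, so their differences are descriptions.
MXD1, which encodes an antagonist of MYC, was 9.52, 9.85 and 9.88 on CTNNB1 siRNA replicates 1 to 3, against 8.10, 8.71 and 8.63 on control siRNA replicates 1 to 3. Like EMP1, it had its lowest value of each group on replicate 1, and its log2 difference was 1.27 (SE 0.20). TM4SF1, a surface protein gene of the L6 family that also crosses the membrane several times, was 10.88, 11.16 and 11.19 on CTNNB1 siRNA replicates 1 to 3, against 9.73, 10.42 and 10.17 on control siRNA replicates 1 to 3. Its groups were apart as well, with a log2 difference of 0.97 (SE 0.20).
MUC13, which encodes a membrane-bound mucin of the intestine, had a log2 difference of 1.31 (SE 0.19). PI3, which encodes the protease inhibitor elafin, had 1.36 (SE 0.22). ALPG and ALPP, near-identical alkaline phosphatase genes whose probes may read each other's transcripts, had 1.28 (SE 0.20) and 1.39 (SE 0.19). Of these, MUC13, ALPG and ALPP had their highest value on CTNNB1 siRNA replicate 1, the array on which EMP1 had the lowest value of its group. For all 6 genes the groups were apart, with the CTNNB1 siRNA arrays above the control arrays, against 6.81% of all rows. Choosing genes by closeness to EMP1 favours such a separation, so it is not a further result.

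**Figure D3:**
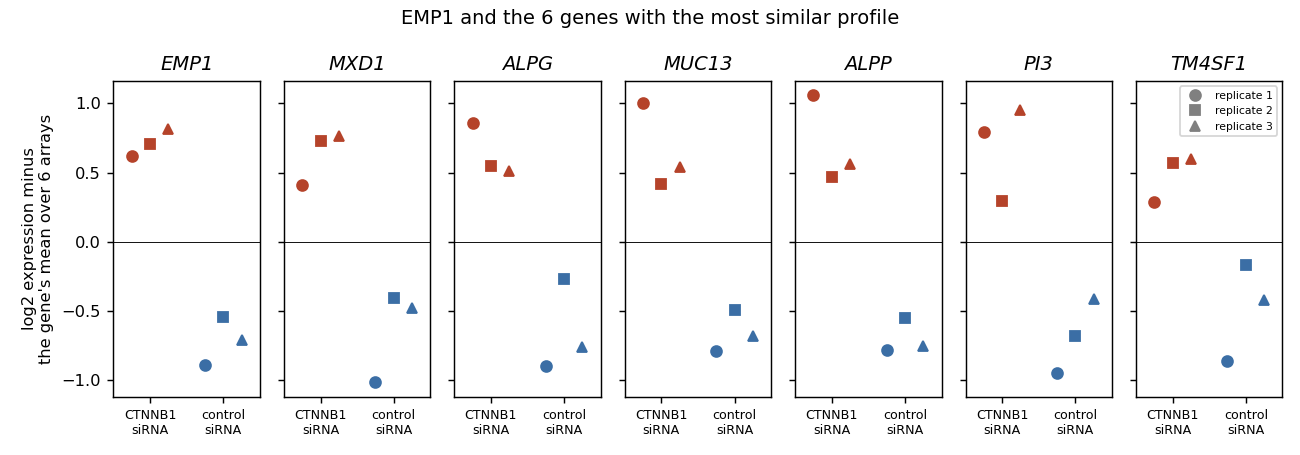
Log2 expression minus the gene's mean over the 6 arrays (y axis) for EMP1 and for the 6 genes with the most similar profile, in order of distance, on CTNNB1 siRNA arrays (red) and control siRNA arrays (blue), with symbols for the replicate number. All 7 genes are higher on the CTNNB1 siRNA arrays, and MXD1 has the smallest distance from EMP1, 0.151.

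The nearest genes on the chromosomes, chosen by position after the family's values were known, gave a local comparison. On chromosome 12, the measured protein-coding genes nearest to EMP1 in RefSeq were FAM234B and GSG1 on one side and GRIN2B and ATF7IP on the other. GSG1, a testis gene that is itself a distant relative of the family, was 3.17 ± 0.15 (SD, n = 3) in CTNNB1 siRNA cells and 3.20 ± 0.11 (SD, n = 3) in control siRNA cells. Both GSG1 and GRIN2B, a glutamate receptor subunit gene, were in the dim range, where a difference would be compressed. The log2 difference was -0.031 (SE 0.15) for GSG1 and 0.10 (SE 0.15) for GRIN2B, and 0.041 and 0.016 without CTNNB1 siRNA replicate 1. FAM234B had a log2 difference of -0.14 (SE 0.25), which turned to 0.083 without CTNNB1 siRNA replicate 1. ATF7IP, which encodes a partner of a histone methyltransferase, had -0.31 (SE 0.35), which turned to 0.11 without that array. None of the 4 passed limma over all rows (adjusted p = 0.850 to 0.969), and the groups overlapped for each. Around EMP2 on chromosome 16 and EMP3 on chromosome 19, the 8 nearest genes had log2 differences from -0.015 to 0.38, and 0 passed. The upper end was NUBP1, a gene of iron-sulphur protein assembly, which had -0.14 without CTNNB1 siRNA replicate 1, and the 8 genes then ran from -0.14 to 0.31.

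Other relatives that share the fold of the family were compared as well. Of 10 listed, 8 were measured, and 0 passed in either direction over all rows in limma, against 0.00514% of all rows. Their median log2 difference was 0.012, against -0.0052 over all genes. The groups were apart for 0 of the 8, against 13.6% of all rows. PERP, a p53 target named for its relation to PMP22 and a component of epithelial desmosomes, was 10.37, 10.54 and 10.49 on CTNNB1 siRNA replicates 1 to 3, against 10.34, 10.40 and 10.49 on control siRNA replicates 1 to 3. The groups overlapped, and the log2 difference was 0.057 (SE 0.13), or 0.10 without CTNNB1 siRNA replicate 1. LIM2, which encodes a lens fibre protein, had a log2 difference of 0.015 (SE 0.13), or 0.063 without that array. TMEM47, a junctional protein gene in the dim range, had 0.19 (SE 0.16), and 0.31 without CTNNB1 siRNA replicate 1. CLDND1, a gene of a claudin-like domain, had -0.29 (SE 0.28), and 0.031 without CTNNB1 siRNA replicate 1.

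Of 21 measured claudins, 0 passed in limma, against 0.00514% of all rows, and their median log2 difference was 0.047. The groups were apart for 4 of the 21, or 19.0%, against 13.6% of all rows, with 3 higher and 1 lower. CLDN4 had the largest positive difference among claudins whose groups were apart, at 0.67 (SE 0.24), and 0.42 without CTNNB1 siRNA replicate 1. CLDN2 had the largest negative one, at -0.57 (SE 0.17).

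Surface and junction proteins reported to bind EMP or PMP22 proteins, or to depend on them, were listed next. Of 19 genes, 16 were measured and 0 passed in limma, with 9 positive and 7 negative differences and a median of 0.074. P2RX7, an ATP-gated channel reported to bind several members, was in the dim range at 3.80 ± 0.20 (SD, n = 3) in CTNNB1 siRNA cells and 3.67 ± 0.30 (SD, n = 3) in control siRNA cells. ITGA6 and ITGB4 encode the integrin pair of hemidesmosomes, which has been found in a complex with PMP22. ITGB4 was 9.48, 9.90 and 9.97 on CTNNB1 siRNA replicates 1 to 3, against 9.06, 9.57 and 9.44 on control siRNA replicates 1 to 3. The groups overlapped on 1 pair of arrays, and the log2 difference was 0.42 (SE 0.20; adjusted p = 0.816), or 0.28 without control siRNA replicate 1. ITGA6 had a log2 difference of -0.20 (SE 0.19), and -0.072 without CTNNB1 siRNA replicate 1.

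CAV1, the caveolin gene whose product EMP2 is reported to affect, was in the dim range and had a log2 difference of 0.38 (SE 0.23), and 0.64 without CTNNB1 siRNA replicate 1. PTK2, which encodes focal adhesion kinase, had -0.086 (SE 0.17), and the kinase gene SRC had 0.20 (SE 0.13). ITGAV, an integrin subunit gene, had 0.12 (SE 0.13). The groups were apart for SRC and ITGAV, that is for 2 of 16 list genes or 12.5%, against 13.6% of all rows. TJP1, the tight junction scaffold ZO-1, had -0.46 (SE 0.29), and -0.10 without CTNNB1 siRNA replicate 1. CANX, the chaperone calnexin that binds PMP22 in the endoplasmic reticulum, had -0.24 (SE 0.19), and -0.048 without that array.

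Squamous differentiation genes were listed because EMP1 was described in that setting. All 16 were measured, 0 passed in limma, and the median log2 difference was 0.089, or 0.024 without CTNNB1 siRNA replicate 1. The groups were apart for 1 of the 16, or 6.25%, against 13.6% of all rows. This was PPL, which encodes the cornified envelope and desmosome protein periplakin. PPL was 7.93, 7.56 and 7.46 on CTNNB1 siRNA replicates 1 to 3, against 7.31, 7.28 and 7.34 on control siRNA replicates 1 to 3. Its log2 difference was 0.34 (SE 0.16; adjusted p = 0.816), and 0.20 without CTNNB1 siRNA replicate 1. IVL and SPRR1B, genes of the cornified envelope, were in the dim range with log2 differences of 0.0040 (SE 0.20) and 0.076 (SE 0.15), which turned to -0.14 and -0.0068 without CTNNB1 siRNA replicate 1. TGM1, the transglutaminase gene of that envelope, had 0.13 (SE 0.16), and SCEL, encoding sciellin, had 0.28 (SE 0.23).

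PMP22 was first known as a growth arrest specific gene and is a myelin gene, so other genes of both kinds were listed. Of 6 measured growth arrest specific genes, 0 passed. GAS1, a membrane protein gene, had a log2 difference of -0.16 (SE 0.16), or -0.042 without CTNNB1 siRNA replicate 1. GAS6, a ligand of receptor kinases, had 0.43 (SE 0.22), or 0.23 without that array. Of 8 measured Schwann cell and myelin genes, 0 passed, and 4 lay in the dim range. The groups were apart for 3 of the 8, or 37.5%, against 13.6% of all rows, with SOX10 and MAG lower and GJB1 higher in CTNNB1 siRNA cells. SOX10, the transcription factor gene of Schwann cells, was 5.89, 5.85 and 5.94 on CTNNB1 siRNA replicates 1 to 3, against 6.11, 5.95 and 6.14 on control siRNA replicates 1 to 3. The margin between the groups was 0.0093, with a log2 difference of -0.17 (SE 0.13; adjusted p = 0.816). GJB1, a connexin gene of myelin and of epithelia, had 0.34 (SE 0.15) with a margin of 0.081, and MAG, a myelin glycoprotein gene in the dim range, had -0.24 (SE 0.13) with a margin of 0.15.

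The mean level over the epithelial markers was higher on the CTNNB1 siRNA arrays. Of the 7 measured markers 0 passed in limma, against 0.00514% of all rows. The groups were apart for 3 of the 7, or 42.9%, against 13.6% of all rows. These were KRT19, CLDN4 and ELF3, all higher in CTNNB1 siRNA cells. All 7 had a positive difference, with a median log2 difference of 0.49, or 0.25 without CTNNB1 siRNA replicate 1. The mean over the list was 10.06 to 10.48 on CTNNB1 siRNA arrays, against 9.70 to 9.86 on control siRNA arrays. KRT19 had a log2 difference of 0.96 (SE 0.36), and 0.54 without CTNNB1 siRNA replicate 1. KRT8 and KRT18 had 0.51 (SE 0.26) and 0.49 (SE 0.24), and 0.22 and 0.25 without that array. EPCAM had 0.13 (SE 0.14), or 0.061 without that array, and CDH1, encoding E-cadherin, had 0.016 (SE 0.22), or 0.25 without it. ELF3, an epithelial transcription factor gene, had 0.33 (SE 0.15). EMP1 differed by 1.48 without CTNNB1 siRNA replicate 1, and the part of the epithelial markers in its difference was not tested. Among the markers of other cell types 0 passed, and the median log2 difference was 0.034 for fibroblast and endothelial genes and 0.062 for immune genes. The groups were apart for 3 of 9 fibroblast and endothelial genes, or 33.3%, against 13.6% of all rows. These were COL1A1, a collagen gene, at 0.36 (SE 0.16), PECAM1, an endothelial adhesion gene in the dim range, at 0.39 (SE 0.15), and VWF, the von Willebrand factor gene, also dim, at -0.16. Among the 5 immune genes CD68, a lysosomal protein gene of macrophages, was 8.03, 8.74 and 8.85 on CTNNB1 siRNA replicates 1 to 3, against 7.86, 8.07 and 8.09 on control siRNA replicates 1 to 3. Its groups overlapped, and its log2 difference was 0.53, or 0.78 without CTNNB1 siRNA replicate 1. The pan-leukocyte gene PTPRC was in the dim range at 2.60 to 2.79 in CTNNB1 siRNA cells and 2.67 to 2.70 in control siRNA cells. VWF, CD68, PTPRC and CDH1, like NUBP1 above, were named after their values were seen, and the part of these markers in the EMP1 difference was not tested.

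**Figure D4:**
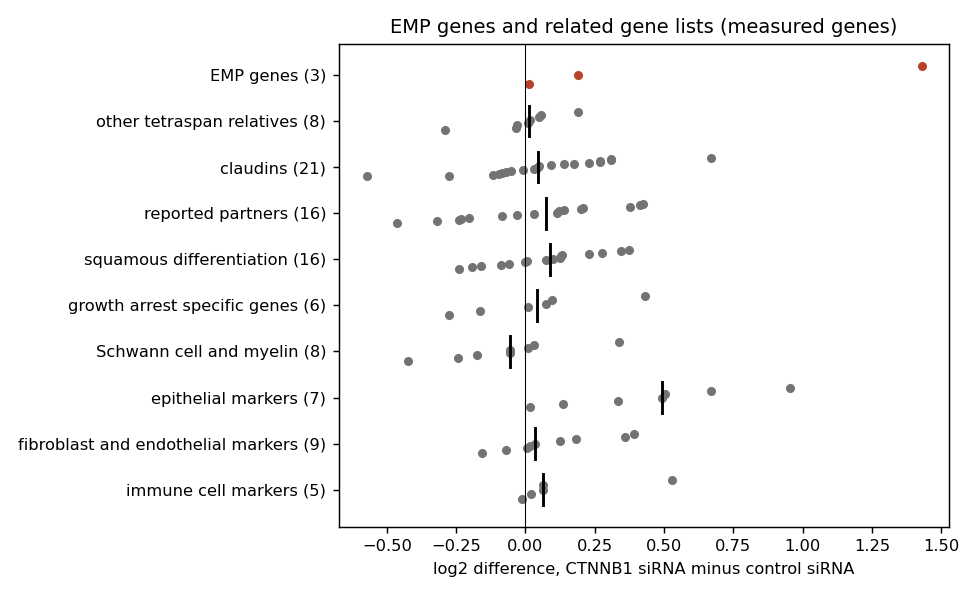
Log2 difference, CTNNB1 siRNA minus control siRNA (x axis), of each measured gene (points) in the EMP family (red) and in the related gene lists (grey), with the number of measured genes in brackets and the median of each list as a black bar. EMP1 at 1.43 lies to the right of every listed gene, the largest of which is KRT19 at 0.96, and the epithelial markers have the highest median, 0.49.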

How the data were processed

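Total RNA of 6 AGS cultures was measured on the Affymetrix Human Gene 1.0 ST array. The authors deposited log2 values, 1 per transcript cluster, from RMA; the submitters' processing notes name Affymetrix Expression Console 1.1. The log2 scale was taken from the values, whose array medians were 5.38 to 5.46. RMA normalises arrays to a common distribution and compresses differences of dim rows, and the sources used here give neither its settings nor a genome build. Of 33297 rows, 19460 were paired with 1 symbol and tested, and 1754 with several symbols and 12083 not listed with a gene were left out. Symbols were updated through RefSeq gene identifiers for 19429 rows. The row with the highest mean stood for a gene.

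Groups of 3 arrays were compared with limma 3.58.1 (lmFit, eBayes) in R 4.3.3, 2-sided, with Benjamini-Hochberg adjustment over all tested rows and a threshold of 0.05. Rows below the 40th percentile of mean level (5.36) were called dim. Members and lists were chosen with earlier results of these data known. Named genes were the family, CTNNB1, role genes of each list, up to 2 further genes per list with the largest difference among those whose groups did not overlap (2 claudins in all), and the 6 genes closest to EMP1, without non-coding, olfactory receptor and open reading frame symbols. Not every gene the rule allows is named. Tested on simulated data of 19460 rows, the procedure found 52.8% of rows with a true log2 difference of 1 and 89.8% of those with 2, and 4.12% of calls were false. In the measured data the same fit called 1 row and 0 lower, so EMP1 at 1.43 and CTNNB1 at -1.27 were not called. The simulated rates need not hold for these data. The number of arrays limits the precision.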

Additional observations from a re-analysis of the deposited data

How the results depend on the processing

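The differences of EMP1, EMP2 and EMP3 moved by less than the spread between replicates with array weights and with array medians subtracted. With 3 arrays per group, leaving out 1 array cannot move a difference by more than that spread, so that check could not fail. The replicate block returned the same differences, which it must when each number has 1 array in each group. Leaving out 1 array gave 1.34 to 1.51 for EMP1, -0.11 to 0.16 for EMP2 and 0.089 to 0.29 for EMP3, so the sign of EMP2 was not settled. With array weights the differences were 1.44, 0.096 and 0.26. The number of rows called in limma, 1 over all 6 arrays, depended on the arrays and settings. It was 0 to 10 when 1 array was left out, with 10 without CTNNB1 siRNA replicate 1 and 0 without each of the other 5. It was 13 with array weights and 1 with an intensity trend. It was 0 with the replicate block, with array medians subtracted, with the dimmest 40% of rows left out, and with all rows of the table tested, and the cause was not tested. At an unadjusted p under 0.05, limma gave 695 to 1428 rows over the fits without 1 array, 1123 with the block, 1163 with medians subtracted, 1715 with array weights, 1078 with an intensity trend and 670 without dim rows. Same-numbered arrays of the groups had correlated deviations of 0.092, 0.120 and 0.098, so the numbers were not taken as pairs, although each CTNNB1 siRNA array correlated best with its own number; under the replicate block EMP1 had the same difference, 1.43 (SE 0.14). The list counts and neighbour values without CTNNB1 siRNA replicate 1 were chosen after seeing the data, and 0 list genes were called in that fit too. The sign of some small list differences turned when 1 array was left out, with ranges of -0.51 to 0.031 for CLDND1, -0.24 to 0.024 for PTK2, -0.14 to 0.15 for IVL, -0.038 to 0.063 for LIM2, -0.16 to 0.25 for CDH1 and -0.0068 to 0.18 for SPRR1B. So did that of most neighbouring genes, among them FAM234B, ATF7IP and NUBP1, with -0.38 to 0.083, -0.52 to 0.11 and -0.14 to 0.66. GSG1 turned as well, with -0.11 to 0.041, whereas GRIN2B stayed positive, at 0.016 to 0.17. No gene of the family had more than 1 row, so the mean over rows was not run.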
